A study of Homo sapiens with 60 samples.

Results

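Aminoacyl-tRNA synthetases are the enzymes that join each amino acid to its transfer RNA. The 36 synthetase genes described here were taken by symbol from a table of 29744 genes, in which they carry their older names (NARS for NARS1, for example): 20 encode enzymes of the cytosol and 16, whose names end in 2, encode enzymes of mitochondria. All 36 passed the filter on low counts over all libraries, AARS2 through its levels in Medium 1, and the filter left 11298 genes for testing. The data are 60 libraries of RNA from spheroids of HCT116, an established human colorectal carcinoma line, sequenced from the 3′ ends of transcripts with molecular identifiers. Spheroids were exposed from day 1 to day 8 to 1 µM butyrate, 0.1 µM hemin, 1 µM kynurenine, 1 µM kynurenic acid, or 0.1 µM hemin with 1 µM kynurenine, or were left untreated, and each of these 6 treatments was sampled with 5 libraries in Medium 2 and 5 in Medium 1. Per the series' design text, some spheroids were sampled directly and others after 3 h without full nutrients. No label used here says which of the numbered media is which, so the media are called by their numbers. All groups share the same line, the spheroid culture and serum at 10% during growth.

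As background, the cytosolic enzymes charge the tRNAs that ribosomes of the cytosol use, and a set of them (DARS, EPRS, IARS, KARS, LARS, MARS, QARS and RARS) is held in the multisynthetase complex on scaffold proteins. The mitochondrial enzymes are encoded in the nucleus, imported, and charge the tRNAs for the few respiratory chain proteins made inside the organelle. When uncharged tRNA builds up, the kinase GCN2 slows translation and the transcription factor ATF4 is made; with C/EBP partners it binds a short element near asparagine synthetase (ASNS), amino acid transporters and many cytosolic synthetase genes.

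To show where that element is written in these genes, the letters TGATGNAA were searched on both strands of the RefSeq promoter windows (GRCh38.p14, 250 bases before to 50 after a transcript's start). They occur in 7 of 16 cytosolic genes with a window and in 1 of 14 mitochondrial ones, against 3.62% of all 35116 windows and 3.67% of the table's genes with a window. TGATGCAA exactly, a form of the same motif, is in 6 of the 8, all but GARS and YARS2. Of the 1270 windows in the reference that hold TGATGNAA, 304 hold TGATGCAA, which is 0.866% of all windows. DARS, LARS, VARS, YARS, AARS2 and VARS2 were not searched here. A match is a description of letters and not of binding. The 60 bases of each gene's coding strand around the match are shown 5′ to 3′ with the match in capitals; TTGCATCA is TGATGCAA read on the other strand.
NARS: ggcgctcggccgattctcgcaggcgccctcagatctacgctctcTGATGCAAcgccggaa
TARS: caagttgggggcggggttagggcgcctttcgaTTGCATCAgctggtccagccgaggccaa
IARS: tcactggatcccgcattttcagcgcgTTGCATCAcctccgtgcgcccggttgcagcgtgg
MARS: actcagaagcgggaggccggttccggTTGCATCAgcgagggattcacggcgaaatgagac
CARS: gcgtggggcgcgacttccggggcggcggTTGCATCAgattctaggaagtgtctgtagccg
AARS: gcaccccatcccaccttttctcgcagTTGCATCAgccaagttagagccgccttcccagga
GARS: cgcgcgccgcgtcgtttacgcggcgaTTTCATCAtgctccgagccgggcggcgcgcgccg
YARS2: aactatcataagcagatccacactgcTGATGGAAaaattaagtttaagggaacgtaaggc
The first 4 lie at chr18:57621807-57621866 (minus strand, NARS), chr5:33440935-33440994 (plus strand, TARS), chr9:92293677-92293736 (minus strand, IARS), chr12:57488038-57488097 (plus strand, MARS). The other 4 lie at chr11:3057394-3057453 (minus strand, CARS), chr16:70289660-70289719 (minus strand, AARS), chr7:30594819-30594878 (plus strand, GARS), chr12:32756061-32756120 (minus strand, YARS2). Counted from the transcript's start as base 1, the first base of the match is at 15 in NARS, 3 in TARS, -13 in IARS, -4 in MARS, -2 in CARS, -187 in AARS, -33 in GARS and -197 in YARS2. The 7 cytosolic matches belong to genes that differed from each other in the comparison of media. There NARS fell, TARS and IARS rose, and MARS, CARS, AARS and GARS passed no threshold on average, as the values below show. In the relation with ASNS within groups, also given below, AARS, MARS and CARS passed upwards, and NARS, TARS, IARS and GARS did not pass. Whether the element plays a part was not tested.

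Libraries held between 1346135 and 3083231 counts (1346135 to 2981625 in Medium 2, 1417045 to 3083231 in Medium 1). The 6 epithelial markers sought were all expressed and summed to 1200 to 1570 CPM (counts scaled to library size) in Medium 2 and 1220 to 1760 CPM in Medium 1. Of 12 markers of fibroblasts, immune and endothelial cells in the table, 4 were at 0 in every library and 2, COL1A1 and CD68, averaged above 1 CPM; the 12 summed to 2.6 to 10.5 CPM in Medium 2 and 6.09 to 17.9 CPM in Medium 1. In 2 libraries the root mean square distance from the other 4 of the group stood apart, at 0.768 for well A7 (kynurenine, Medium 2) and 0.636 for well B2 (butyrate, Medium 1), against a median of 0.432 and no other above 0.554 on the log2 scale. Each group fills its own run of consecutive wells of the plate, and the media lie in different parts of it. Neither medium nor exposure can therefore be told apart from plate position. In bulk RNA, fewer cells with a transcript and less of it per cell cannot be told apart either.

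Synthetase RNA was plentiful for the cytosolic enzymes and sparse for the mitochondrial ones. The 20 cytosolic genes summed to 2731 ± 110 CPM in Medium 2 and 2637 ± 182 CPM in Medium 1, and the 16 mitochondrial genes to 387 ± 23.8 CPM in Medium 2 and 403 ± 25.7 CPM in Medium 1 (SD, n = 30 each). The cytosolic sum was thus 7.08 ± 0.528 times the mitochondrial one in Medium 2 and 6.58 ± 0.684 times in Medium 1, and the ranges of the 2 media, 5.88 to 8.17 and 5.49 to 8.44, overlapped over most of their length. Because reads come from transcript ends, a gene's CPM stands for its share of molecules and does not grow with its length. By this measure TARS, the threonine enzyme, was the most abundant (mean 388 CPM over 60 libraries), followed by DARS for aspartate at 276 CPM. Between 192 and 202 CPM lay RARS, KARS, EPRS and IARS, whose SDs of 19.8 to 37 CPM exceeded the gaps between them. The lowest cytosolic member was HARS for histidine, at 36.6 CPM. Among mitochondrial members IARS2 (62.4 CPM) and HARS2 (60.8 CPM) led, and AARS2, which charges mitochondrial alanine tRNA, was the lowest at 3.91 CPM. That is a mean of 7.82 counts per library, so single AARS2 values carry large counting error; TARS2 (14.2 counts), VARS2 (15 counts) and PARS2 (15.2 counts) were little higher.

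**Figure D1:**
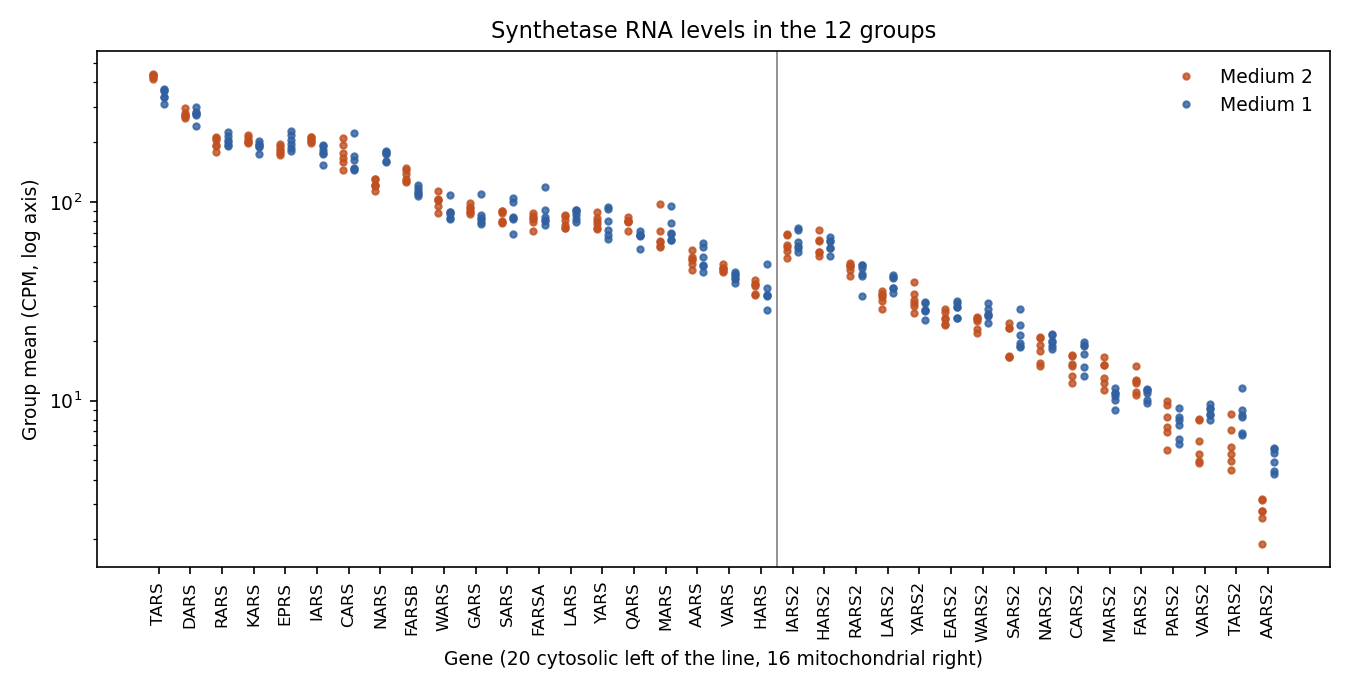
Mean CPM of each of the 36 synthetase genes in the 12 groups (log axis); each dot is the mean of 5 libraries, Medium 2 drawn left of Medium 1. Cytosolic genes span means of 36.6 to 388 CPM and mitochondrial genes 3.91 to 62.4 CPM over all 60 libraries.

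The comparison that the design is built around is between the media. Averaged over treatments, 6 cytosolic genes were higher in Medium 2 (TARS, FARSB, QARS, IARS, WARS and KARS) and NARS, the asparagine enzyme, was lower. Of the mitochondrial genes 1 rose (MARS2, for methionine) and 5 fell (AARS2, VARS2, TARS2, LARS2 and EARS2). That is 13 of 36 members past an adjusted p of 0.05 in the quasi-likelihood test of edgeR, Benjamini-Hochberg adjusted, or 36.1%, while 46.1% of all 11298 tested genes passed (22.8% higher and 23.3% lower in Medium 2). The members' share was below that of all tested genes, and no difference between these shares was tested. The median log2 fold change, Medium 2 over Medium 1, was 0.05 for the cytosolic genes and -0.14 for the mitochondrial ones, beside -0.01 (-0.005 unrounded) for all tested genes.

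**Figure D2:**
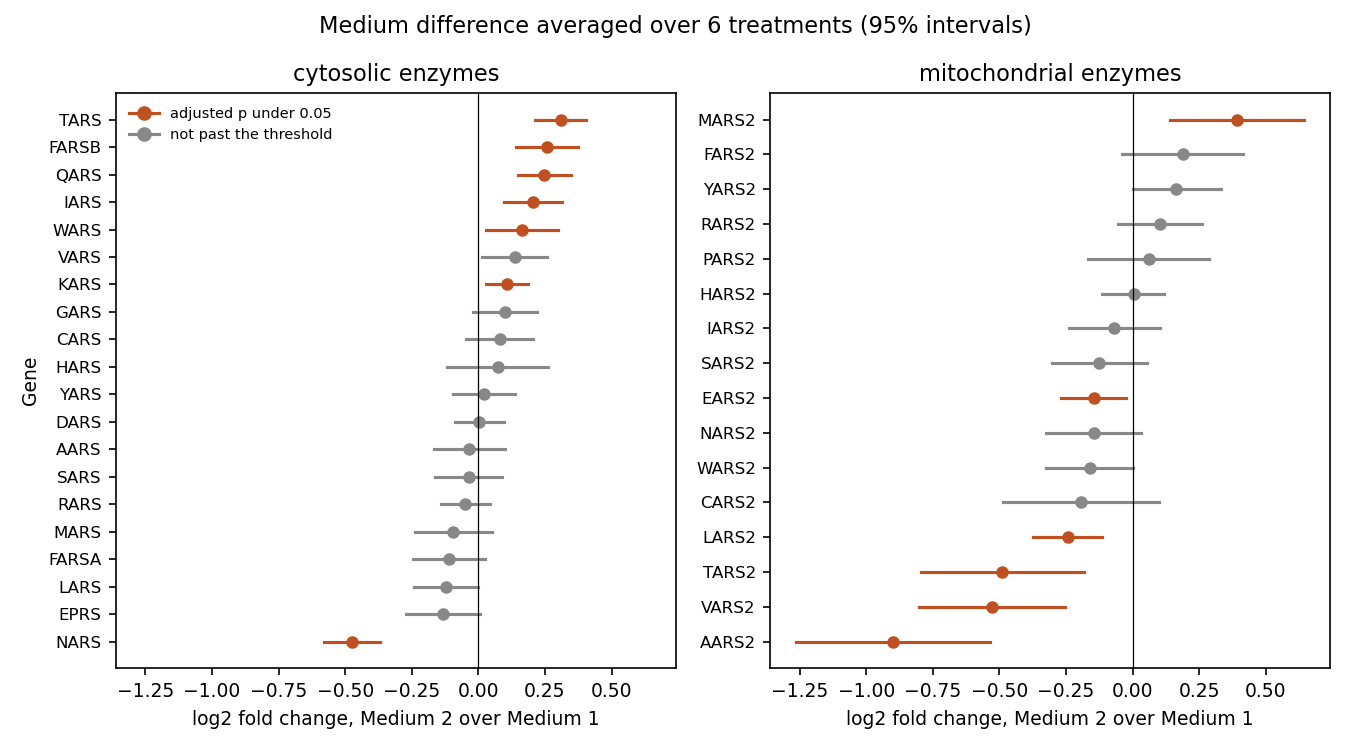
Log2 fold change, Medium 2 over Medium 1, averaged over 6 treatments, for 20 cytosolic (left) and 16 mitochondrial (right) synthetase genes; dots are estimates, lines 95% intervals, and orange marks an adjusted p under 0.05. NARS lies at -0.47, below every other cytosolic gene, while 5 of the 6 marked mitochondrial genes lie below 0.

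NARS showed the most repeated change. Across the 30 libraries of each medium its lowest, median and highest levels were 87.7, 124 and 157 CPM in Medium 2 and 134, 166 and 221 CPM in Medium 1. The ranges overlapped between 134 and 157 CPM, and the averaged log2 fold change was -0.47 (SE 0.05, adjusted p = 2.37e-11, edgeR quasi-likelihood). Its motif match, in the stretch shown above, begins at base 15 of the transcript. In untreated spheroids NARS had 103, 105, 111, 118 and 125 CPM in Medium 2, against 141, 150, 156, 158 and 183 CPM in Medium 1. With hemin it had 95.6, 116, 131, 133 and 136 CPM in Medium 2, against 158, 166, 180, 182 and 194 CPM in Medium 1. With kynurenine the values were 106, 107, 119, 134 and 135 CPM in Medium 2, against 148, 155, 159, 167 and 172 CPM in Medium 1. In these 3 treatments no library of Medium 2 reached the lowest of Medium 1. With butyrate NARS had 112, 127, 129, 134 and 153 CPM in Medium 2, against 136, 157, 183, 198 and 215 CPM in Medium 1. With kynurenic acid it had 114, 120, 124, 135 and 157 CPM in Medium 2, against 134, 165, 180, 185 and 204 CPM in Medium 1. With hemin and kynurenine together it had 87.7, 114, 123, 141 and 143 CPM in Medium 2, against 137, 150, 195, 199 and 221 CPM in Medium 1. In these 3 the groups overlapped by 1 or 2 libraries. NARS passed the threshold downwards within each of the 6 treatments, with log2 fold changes between -0.57 and -0.41; 97 genes, or 0.859% of those tested, did so, and these 6 comparisons share no library. The size of the fall did not differ detectably between any exposure and untreated spheroids (differences between -0.08 and 0.07 on the log2 scale, adjusted p at least 0.943). Within single treatments the call was less firm. It was lost in untreated spheroids without well B1 (adjusted p = 0.0637), with butyrate without well G1, H1 or F5 (0.0645 to 0.101), with kynurenine in 7 of 10 leave-one-out fits (0.0589 to 0.109) and with kynurenic acid in 6 of 10 (0.0574 to 0.1). With hemin and with the combination it was kept in all 10.

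**Figure D3:**
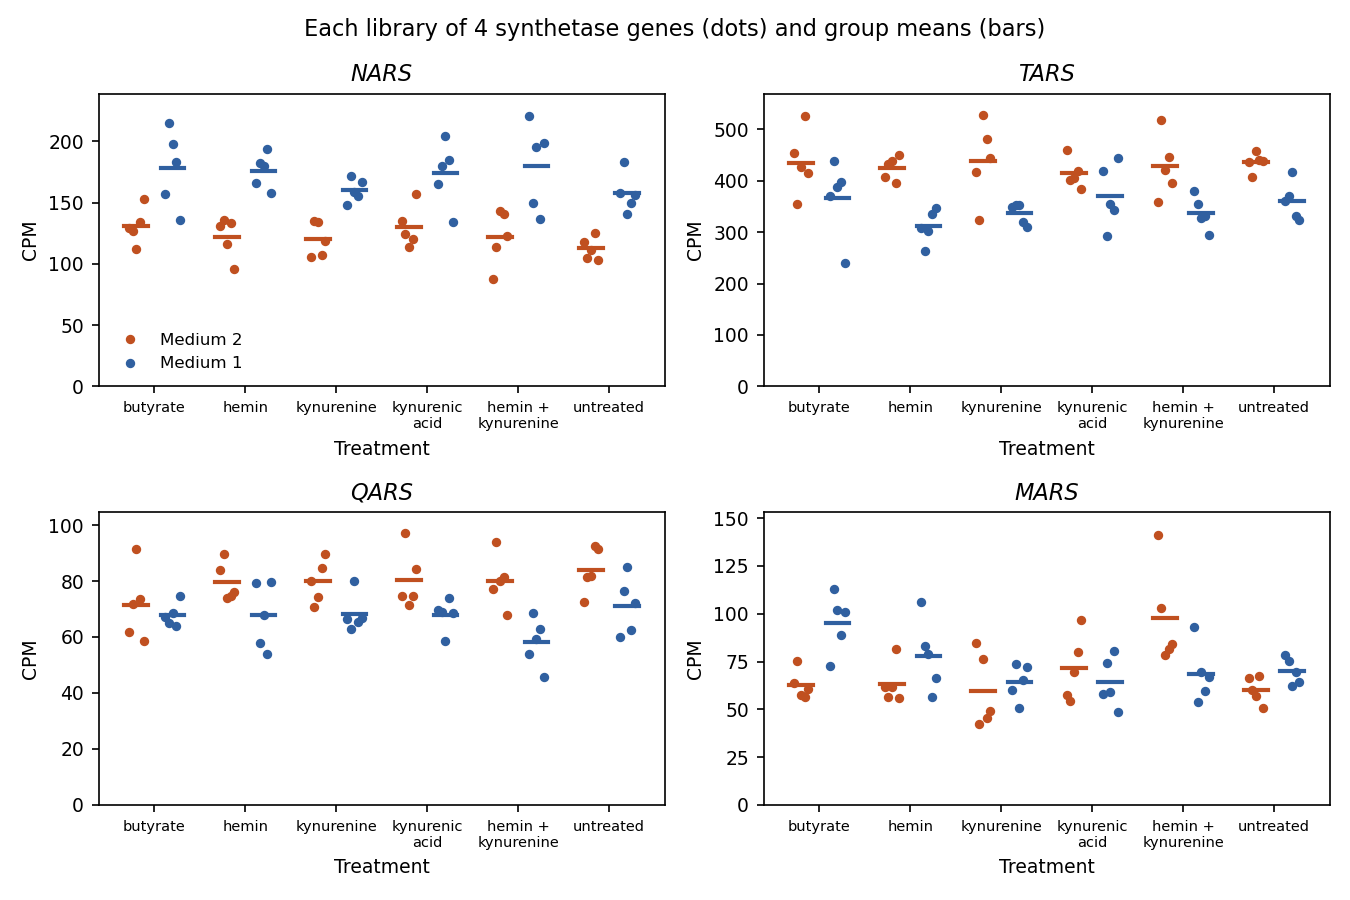
CPM of NARS, TARS, QARS and MARS in each library (dots) and the group mean (bars) for 6 treatments, Medium 2 left of Medium 1. NARS is lower in Medium 2 within every treatment, TARS is higher on average in each, and MARS is high with hemin and kynurenine in Medium 2 (mean 97.8 CPM).

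Among the cytosolic genes that rose, TARS did so most. Its lowest, median and highest levels were 324, 429 and 528 CPM in Medium 2 and 240, 348 and 444 CPM in Medium 1. The ranges overlapped between 324 and 444 CPM, and the averaged log2 fold change of TARS was 0.31 (SE 0.05, adjusted p = 2.37e-07, edgeR quasi-likelihood). With hemin it had 396, 407, 432, 438 and 450 CPM in Medium 2, against 264, 303, 308, 335 and 347 CPM in Medium 1. These groups did not overlap. The sign was positive in all 6 treatments (0.16 to 0.45) and TARS was called with hemin, kynurenine and the combination, the last pair being lost in 4 and 5 of 10 leave-one-out fits (adjusted p 0.0521 to 0.172). FARSB, the beta subunit of the phenylalanine enzyme, ranged from 105 to 182 CPM with a median of 135 in Medium 2 and from 80.7 to 147 CPM with a median of 113 in Medium 1 (0.26, SE 0.06, adjusted p = 2.29e-04). QARS, for glutamine, ranged from 58.6 to 97.1 CPM with a median of 78.6 in Medium 2 and from 45.6 to 85 CPM with a median of 67 in Medium 1 (0.25, SE 0.05, adjusted p = 3.66e-05). Both ranges overlapped. With hemin and kynurenine QARS had 68, 77.2, 80.1, 81.4 and 93.8 CPM in Medium 2, against 45.6, 54.1, 59.3, 63 and 68.4 CPM in Medium 1, and the groups overlapped by a single library (0.47, adjusted p = 0.00462). IARS for isoleucine rose by 0.21 on the log2 scale (adjusted p = 0.00126). WARS for tryptophan rose by 0.16 (adjusted p = 0.0392), a call lost in 12 of 60 leave-one-out fits (0.0503 to 0.0674) and without wells B2 and A7 (0.117).

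GARS and KARS are single genes whose products serve both compartments, and EPRS joins the glutamate and proline enzymes in a single chain. KARS, for lysine, ranged from 173 to 240 CPM with a median of 204 in Medium 2 and from 140 to 221 CPM with a median of 189 in Medium 1, a small rise (0.11, SE 0.04, adjusted p = 0.0205) that missed the threshold with no filter on low counts (0.0729). GARS, for glycine, ranged from 69.5 to 127 CPM with a median of 91.4 in Medium 2 and from 60 to 162 CPM with a median of 82.6 in Medium 1 (0.10, SE 0.06, adjusted p = 0.166). EPRS ranged from 86 to 257 CPM with a median of 181 in Medium 2 and from 139 to 294 CPM with a median of 198 in Medium 1 (-0.13, SE 0.07, adjusted p = 0.11). Neither passed, although EPRS did as lower once wells B2 and A7 were left out. Of the 8 enzymes of the multisynthetase complex 3 were called higher (IARS, KARS and QARS) and none lower; of the 12 others 3 were called higher and 1 lower. These shares, 3 of 8 and 4 of 12, lie below the 46.1% of all tested genes called. The medians were -0.02 in the complex and 0.08 outside it.

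Of the 5 mitochondrial genes that fell, AARS2, TARS2 and VARS2 are among the least abundant of the family, while LARS2 averaged 36 CPM and EARS2 27.5 CPM over 60 libraries. AARS2 had a lowest, median and highest level of 0, 2.72 and 5.17 CPM in Medium 2 and 1.16, 4.87 and 11.4 CPM in Medium 1 (-0.90, SE 0.18, adjusted p = 4.15e-05). In the libraries of Medium 2 alone AARS2 did not pass the filter on low counts. Its place among the tested genes thus rested on Medium 1, the side where it was higher. It was also called lower when no filter was used. VARS2, for valine, had 1.52, 6.11 and 13 CPM in Medium 2 and 5.38, 8.79 and 11.9 CPM in Medium 1 (-0.53, SE 0.14, adjusted p = 0.00114). TARS2, for threonine, had 2.08, 5.96 and 13.1 CPM in Medium 2 and 1.47, 8.61 and 14.8 CPM in Medium 1 (-0.49, SE 0.15, adjusted p = 0.0068). All 3 pairs of ranges overlapped widely, and all 3 log2 fold changes were negative in each of the 6 treatments. LARS2, for leucine, fell by 0.24 (SE 0.06, adjusted p = 0.00142) and EARS2, for glutamate, fell by 0.15 (SE 0.06, adjusted p = 0.0464), and EARS2 lost its call in 39 of 60 leave-one-out fits, with plate row as a term (0.0758) and with no filter on low counts (0.147). MARS2 went the other way. Its lowest, median and highest levels were 4.55, 14.1 and 21.1 CPM in Medium 2 and 0.611, 10.4 and 17.4 CPM in Medium 1 (0.39, SE 0.13, adjusted p = 0.0086), with a positive sign in all 6 treatments. In the annotation VARS2 shares 1858 exonic bases with GTF2H4 on the same strand, though none within 1000 bases of its 3′ end, where the reads come from. How reads in shared bases were assigned is not given in the sources used here.

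Cytosolic and mitochondrial enzymes for the same amino acid can be set side by side, as a description, since differences within pairs were not tested. The glutamate pair had like fold changes (EPRS -0.13, EARS2 -0.15), as did leucine (LARS -0.12, LARS2 -0.24) and serine (SARS -0.04, SARS2 -0.12). For threonine the cytosolic to mitochondrial ratio of mean CPM was 71 in Medium 2 and 41 in Medium 1, since TARS rose while TARS2 fell. For alanine it was 18.7 in Medium 2 and 10.3 in Medium 1, with AARS at -0.03 and AARS2 at -0.90. For valine it was 7.37 in Medium 2 and 4.76 in Medium 1, with VARS at 0.14, which did not pass, and VARS2 at -0.53. For asparagine it was lower in Medium 2 (6.78) than in Medium 1 (8.56), and likewise for methionine (4.98 in Medium 2, 7.01 in Medium 1), where MARS2 rose and MARS did not pass (-0.09, adjusted p = 0.292). The histidine pair stood alone in having more mitochondrial than cytosolic transcript, with ratios of 0.611 in Medium 2 and 0.593 in Medium 1. These 2 genes start 85 bases apart on opposite strands, and neither moved between media on average (HARS 0.07, adjusted p = 0.559; HARS2 0.00, adjusted p = 0.968). They share 437 annotated exonic bases away from their 3′ ends, and HARS2 also shares 152 bases at its 3′ end with ZMAT2 on the same strand and HARS 221 bases with WDR55 on the other, so that their separate levels are uncertain.

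Within single treatments 23 member calls were made over the 6 medium comparisons. In untreated spheroids 1 of 36 members passed, downwards (6.38% of all tested genes, 2.69% up and 3.69% down). With butyrate 3 passed, all downwards (9.89%, 4.51% up and 5.37% down). With hemin 10 passed, 4 up (IARS, TARS, FARSB and RARS2) and 6 down (NARS, FARSA, AARS, SARS2, AARS2 and LARS2), beside 23.9% of all genes, 12.6% up and 11.4% down. With kynurenine 3 passed, 2 up and 1 down (8.01%, 3.73% up and 4.28% down). With kynurenic acid 1 passed, downwards (8.56%, 4.3% up and 4.26% down). With hemin and kynurenine 5 passed, 3 up and 2 down (16.3%, 8.02% up and 8.32% down). The members' share ran from 2.78% to 27.8%. It was above that of all genes with hemin (27.8% beside 23.9%) and with kynurenine (8.33% beside 8.01%), and below it in the others. No difference between these shares was tested. The hemin calls of AARS, LARS2 and RARS2 were the least firm, being lost in 7, 8 and 8 of 10 leave-one-out fits (adjusted p between 0.053 and 0.206), and that of IARS was lost without well E6 (0.0639). With hemin the subunits of the phenylalanine enzyme parted. FARSA, the alpha subunit, had 59.1, 63.1, 74.7, 77.6 and 83.1 CPM in Medium 2, against 68.9, 111, 128, 136 and 153 CPM in Medium 1. FARSB had 119, 135, 141, 166 and 178 CPM in Medium 2, against 89.4, 112, 113, 114 and 128 CPM in Medium 1. FARSA was thus lower in Medium 2 apart from an overlap with 1 low library of Medium 1 (-0.74, SE 0.17, adjusted p = 8.66e-04), while FARSB was mostly higher (0.41, SE 0.14, adjusted p = 0.0303), a call lost in 5 of 10 leave-one-out fits (0.0509 to 0.115). In the test of the difference itself, FARSA's medium effect with hemin was lower than without treatment by a log2 value of -0.78 (SE 0.24, adjusted p = 0.222), which did not pass. With hemin SARS2, for mitochondrial serine, was lower in Medium 2, at 16.7 ± 2.79 CPM, against 28.9 ± 7.33 CPM in Medium 1 (n = 5 each, -0.78, SE 0.22, adjusted p = 0.00709). Untreated spheroids averaged 16.5 CPM of SARS2 in Medium 2 and 18.7 CPM in Medium 1. The SARS2 transcript shares 1492 annotated bases with AC011455.2 on the same strand, 550 of them within 1000 bases of its 3′ end, so that its level is uncertain.

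**Figure D4:**
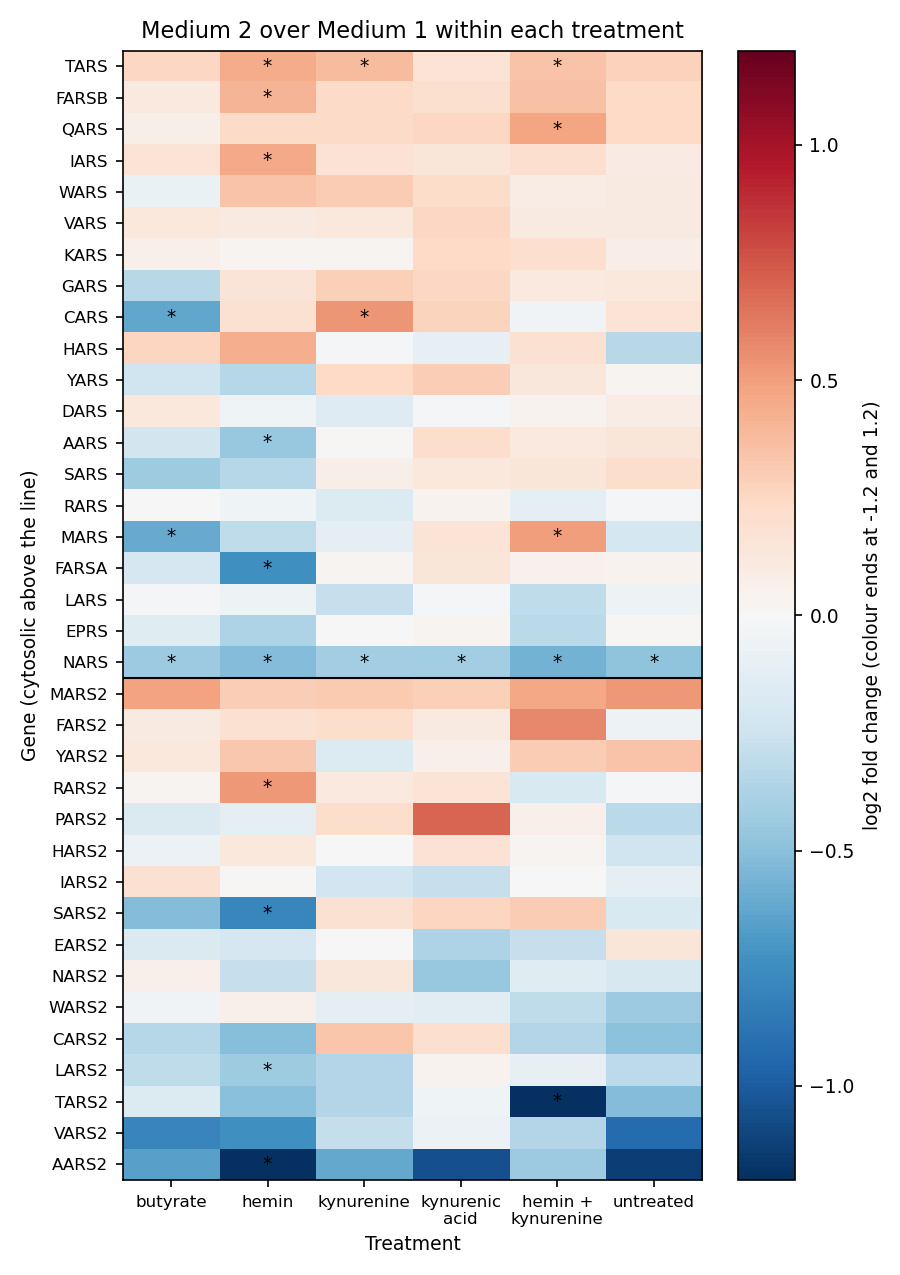
Log2 fold change, Medium 2 over Medium 1, within each of 6 treatments for the 36 genes, cytosolic above the line; red is higher and blue lower in Medium 2, and a star marks an adjusted p under 0.05. NARS is starred in all 6 columns, TARS in 3, and hemin has 10 stars.

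CARS and MARS had medium differences of opposite sign in different treatments, and those treatments were not tested against each other. In the tests of each exposure's medium difference against that of untreated spheroids, no member passed. The smallest adjusted p of any member was 0.982 with butyrate and 0.381 with hemin and kynurenine (edgeR quasi-likelihood). CARS, for cysteine, had 131, 140, 144, 153 and 154 CPM with butyrate in Medium 2, against 176, 183, 191, 212 and 356 CPM in Medium 1. It had 154, 156, 170, 211 and 355 CPM with kynurenine in Medium 2, against 138, 138, 142, 145 and 155 CPM in Medium 1. The butyrate groups did not overlap and those of kynurenine barely did, yet each difference leaned on 1 high library. With butyrate the log2 fold change was -0.63 (adjusted p = 0.00451), and -0.39 (0.101) without well G1; with kynurenine it was 0.53 (adjusted p = 0.021), and 0.28 (0.231) without well A7, which stood apart over all genes. Untreated spheroids averaged 60.3 CPM of MARS, for methionine, in Medium 2 and 69.9 CPM in Medium 1. With butyrate MARS was lower in Medium 2 than in Medium 1 (62.7 ± 7.6 CPM in Medium 2, 95.4 ± 15.4 CPM in Medium 1, n = 5 each, -0.60, adjusted p = 0.019). With hemin and kynurenine it was higher in Medium 2 (97.8 ± 25.9 CPM in Medium 2, 68.7 ± 15.1 CPM in Medium 1, n = 5 each, 0.51, adjusted p = 0.0343). The butyrate call was lost without well G1 or G5 (0.0518 to 0.0693) and the other in 6 of 10 leave-one-out fits (0.0566 to 0.212). TARS2 had 2.95, 3.75, 3.97, 5.38 and 6.28 CPM with hemin and kynurenine in Medium 2, against 8.87, 9.15, 10.5, 14.6 and 14.8 CPM in Medium 1, groups that did not overlap (-1.35, SE 0.36, adjusted p = 0.00611). AARS2 had 0, 1.52, 2.25, 2.43 and 3.31 CPM with hemin in Medium 2, against 3.11, 3.67, 4.96, 7.38 and 8.19 CPM in Medium 1 (-1.52, SE 0.48, adjusted p = 0.0163), and lost the call without well D2 or C6 (0.0672 to 0.0675). As said above, AARS2 passed the filter through Medium 1, where it was higher. Over all 6 treatments 8 cytosolic and 4 mitochondrial genes kept a single sign, beside 31.4% of all tested genes.

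The genes that work beside the synthetases were read in the same averaged comparison, in which 46.1% of all tested genes passed, 22.8% upwards and 23.3% downwards. The 13 partner genes are scaffolds of the complex, proofreading enzymes, the mitochondrial amidation and formylation steps, and also TARSL2, SEPSECS and XPOT. Of these, 3 were higher in Medium 2 on average: DTD1 and DTD2, which remove D-amino acids from tRNA, by 0.51 and 0.22, and the scaffold AIMP2 by 0.30. The editing protein gene AARSD1 fell by 0.19 (adjusted p = 0.0459), and the other 9 did not pass. Of 9 translation elongation factors, which include EEF1A1 and TUFM, carriers of charged tRNA to the ribosome, as well as nucleotide exchange factors and translocases, 7 rose. The exchange factor gene EEF1B2 stood at 1890 CPM in Medium 2 and 1445 CPM in Medium 1 (0.38, adjusted p = 6.73e-13). Of 18 genes of the ATF4 list other than synthetases 14 rose and none fell. DDIT3, a stress transcription factor, averaged 65.0 ± 14.8 CPM in Medium 2 and 17.6 ± 4.92 CPM in Medium 1 (1.89, SE 0.08, adjusted p = 1.2e-27), and CHAC1, which degrades glutathione, rose by 2.18. ATF4 itself (-0.10, adjusted p = 0.276) and ASNS (0.08, adjusted p = 0.525) did not pass. The median log2 fold change was 0.36 for the ATF4 list, 0.26 for the elongation factors, 0.05 for the partners and, as above, 0.05 for the cytosolic synthetases. MARS and DDIT3 overlap tail to tail by 355 annotated bases on opposite strands, all within 1000 bases of MARS's 3′ end; the deposited counts are not stated to use strand, and what DDIT3's reads add to MARS was not tested.

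Exposures were each compared with untreated spheroids of the same medium, and the 5 exposures of a medium share its untreated libraries. Over these 10 comparisons 1 member passed. MARS had 78.6, 81.8, 84.4, 103 and 141 CPM with hemin and kynurenine in Medium 2, against 50.7, 57.2, 59.9, 66.5 and 67.4 CPM in untreated spheroids of Medium 2. The groups did not overlap (0.70, SE 0.18, adjusted p = 0.0433), and 0.558% of tested genes were called in this comparison (0.31% up and 0.248% down). DDIT3 in the same groups averaged 70.5 ± 13 CPM with the combination and 56.7 ± 13.5 CPM untreated (n = 5 each, 0.31, adjusted p = 0.463). The MARS call was lost in 8 of 10 leave-one-out fits (adjusted p between 0.0561 and 0.273), with plate row as a term (0.0664) and after thinning to equal depth (0.09), and the response did not differ detectably between media (0.72, SE 0.25, adjusted p = 0.381).

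Hemin in Medium 1 came next. No member passed there with edgeR's quasi-likelihood test, while 9 of 36 had an unadjusted p under 0.05, beside 21.5% of all tested genes, of which 0.133% passed after adjustment (0.0443% up and 0.0885% down). FARSA had 68.9, 111, 128, 136 and 153 CPM with hemin in Medium 1, against 71.5, 73.1, 80.5, 88.2 and 89.6 CPM untreated (0.57, SE 0.16, adjusted p = 0.0599). SARS, the cytosolic serine enzyme, had 82.9, 86.3, 105, 111 and 115 CPM with hemin in Medium 1, against 59.3, 69.7, 70.7, 72.4 and 74 CPM untreated, without overlap (0.53, SE 0.15, adjusted p = 0.0605). HARS averaged 28.4 ± 5.43 CPM with hemin and 48.6 ± 17.7 CPM untreated in Medium 1 (n = 5 each, -0.77, SE 0.23, adjusted p = 0.065). DESeq2 called these 3 genes, and so did the edgeR test without wells B2 and A7, which added SARS2. The edgeR test called FARSA and SARS with no filter on low counts, and SARS in a fit to the 2 groups alone. All-gene shares under these other settings are not given here, so the added member calls cannot be set against them. With butyrate in Medium 1, where 0.00885% of genes passed, 7 of 20 cytosolic genes and none of 16 mitochondrial ones had an unadjusted p under 0.05, beside 8.54% of all tested genes. Of the 7, 6 were positive (SARS 0.60, CARS 0.59, MARS 0.45, GARS 0.41, WARS 0.40 and YARS 0.39), HARS was at -0.52, and the smallest adjusted p was 0.302. The single gene called in that comparison was ASNS, at 192 ± 107 CPM with butyrate and 80.7 ± 27 CPM untreated (n = 5 each, 1.24, adjusted p = 0.025). Well G1 was the highest butyrate library for all 6 positive genes, with 356 CPM of CARS against 176 to 212 CPM in the other 4 and 375 CPM of ASNS. Without it 3 of 20 cytosolic genes had an unadjusted p under 0.05 (the all-gene share of that fit is not given). The values were then 0.36 for CARS, 0.23 for GARS and 0.24 for YARS, and ASNS was no longer called (0.85, adjusted p = 0.913). The ASNS call was also lost without well B1, C1, D1 or E1 (adjusted p 0.0646 to 0.303). Leaving out wells B2 and A7 brought in CARS as higher, in a fit whose all-gene share is likewise not given. In the other 7 comparisons between 0 and 3 of 36 members had an unadjusted p under 0.05, beside 3.27% to 7.97% of all tested genes, and no member passed. All-gene shares after adjustment were there 0.0266% with kynurenine in Medium 2 (0.0177% up, 0.00885% down), 0.0177% with kynurenic acid in Medium 2 (all down), 0% with butyrate and with hemin in Medium 2, 0.0266% with the combination in Medium 1 (all up), 0.0354% with kynurenine in Medium 1 (all up) and 0% with kynurenic acid in Medium 1. In the 5 tests of whether a response differed between media none passed either (0% to 0.0266% of all genes did, 0.0177% for kynurenine). Between 0 and 4 of the 36 members had an unadjusted p under 0.05, beside 3.7% to 13.3% of all tested genes.

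Kynurenic acid is made from kynurenine by transamination and ring closure, and both were given at 1 µM over the same days. Kynurenic acid set against kynurenine gave no called member in edgeR's quasi-likelihood test in either medium, and none with DESeq2 (72 gene comparisons read from fits over all genes). In the edgeR test 2 members in Medium 2 and 0 in Medium 1 had an unadjusted p under 0.05, beside 5.9% and 3.74% of all tested genes. The calls over all genes were 0.00885% in Medium 2 and 0.0354% in Medium 1. The log2 differences ranged from -0.43 to 0.68 in Medium 2 and from -0.43 to 0.38 in Medium 1. Half-widths of the 95% intervals had a median of 0.33 in both media and reached 0.956 in Medium 2 and 0.797 in Medium 1, so that changes of that size could not be seen. The smallest p belonged to HARS2, with 71.9 ± 14.5 CPM under kynurenic acid and 53.6 ± 7.85 CPM under kynurenine in Medium 2 (n = 5 each, 0.42, 95% interval 0.13 to 0.70, adjusted p = 0.644).

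Since ASNS varied widely between libraries of a group, the synthetases were also set against it within groups. This relation was chosen after the data were seen. For each of 11297 genes the log2 change per log2 change of ASNS was fitted with edgeR beside the 12 group means, so that differences between groups do not enter; 7.58% of genes passed (3.69% upwards and 3.89% downwards). Among cytosolic genes 5 followed ASNS upwards, YARS, AARS, SARS, MARS and CARS, and DARS ran against it. Among mitochondrial genes SARS2 followed it and IARS2 ran against it. YARS, for tyrosine, had the smallest adjusted p among members: a slope of 0.33 (SE 0.07, adjusted p = 0.00533), Pearson r = 0.57 and Spearman rho = 0.425 over 60 within-group deviations (permutation p within groups 2e-04 and 0.00165). AARS, for alanine, had a slope of 0.36 (SE 0.08, adjusted p = 0.00756), r = 0.56 and rho = 0.52 (permutation p 5e-05 and 1.1e-04). DARS had a slope of -0.19 (SE 0.06, adjusted p = 0.0426), r = -0.43 and rho = -0.39 (permutation p 0.00396 and 0.00541), and IARS2 a slope of -0.40 (SE 0.12, adjusted p = 0.0273), r = -0.46 and rho = -0.39 (permutation p 6.6e-04 and 0.00333). The median r was 0.32 for the 12 cytosolic enzymes outside the multisynthetase complex, -0.04 for the 8 inside it, 0.03 for the mitochondrial enzymes and -0.01 for all genes. TARS and NARS, which changed between media, did not pass in this relation (r = -0.10 for TARS and 0.19 for NARS). Among ATF4 list genes other than ASNS, 7 of 17 followed it and 1 ran against it; SLC7A5, an amino acid transporter, had r = 0.62 and ATF4 r = 0.58.

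The relation with ASNS varied with the libraries used. The 2 libraries farthest from the median in ASNS were well G1 (butyrate, Medium 1, 375 CPM) and well H7 (hemin and kynurenine, Medium 2, 247 CPM). Without them r was 0.50 for YARS, 0.53 for AARS, -0.35 for DARS and -0.33 for IARS2, and 3 cytosolic and 0 mitochondrial genes passed, beside 2.74% of all genes. Within Medium 2 alone r was 0.16 for YARS, 0.33 for AARS, -0.52 for DARS and -0.38 for IARS2. There 0 of 20 cytosolic genes and 2 of 15 mitochondrial ones passed, SARS2 upwards (r = 0.67, adjusted p = 0.0261) and YARS2 downwards (r = -0.62, adjusted p = 0.0436), beside 3.63% of all genes. Within Medium 1 alone it was 0.78 for YARS, 0.70 for AARS, -0.35 for DARS, -0.56 for IARS2 and 0.43 for SARS2, and YARS (adjusted p = 0.0234) was the only member past the threshold, beside 0.0361% of all genes. Whether the relation differs between media was not tested. The deviations of ASNS had r = 0.14 with the total count of the library.

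**Figure D5:**
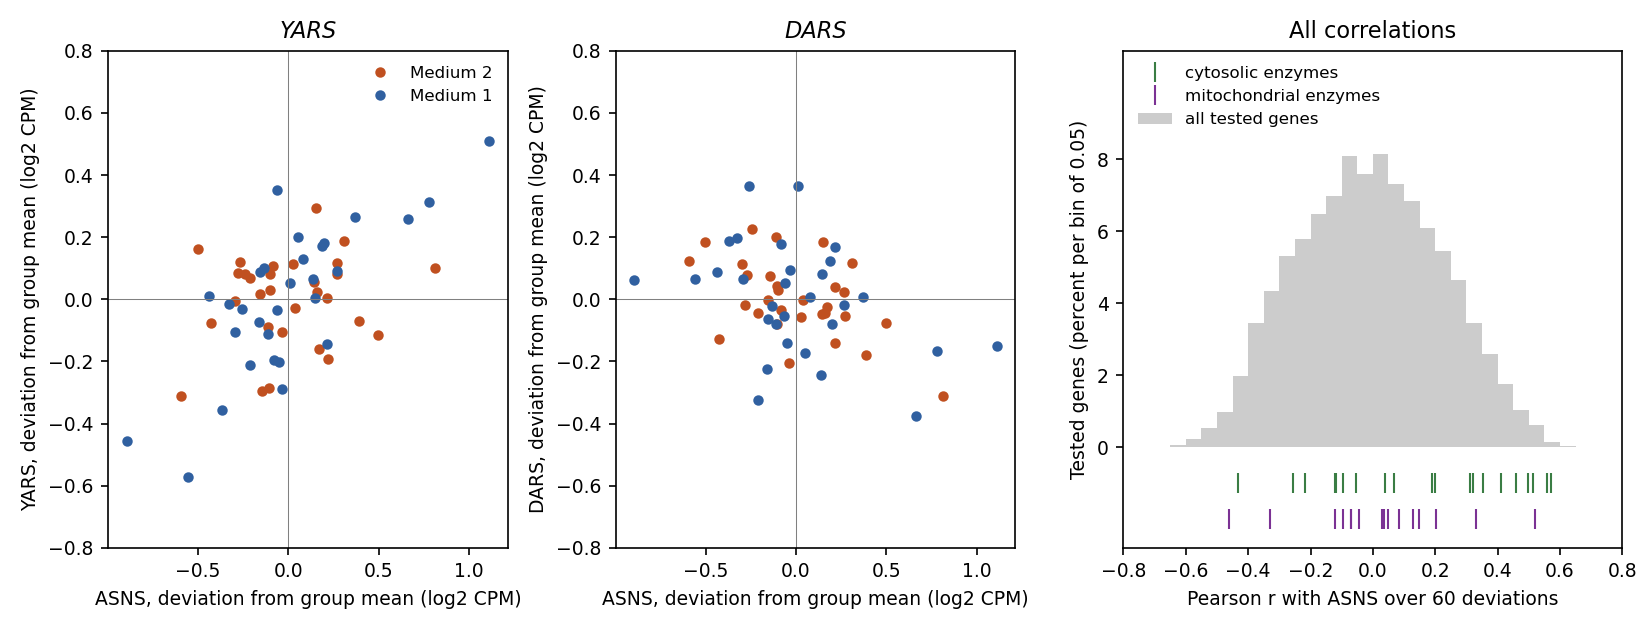
Left and middle: deviation of YARS and DARS from the group mean against that of ASNS in 60 libraries (log2 CPM), orange for Medium 2 and blue for Medium 1. Right: Pearson r with ASNS for cytosolic and mitochondrial synthetase genes (ticks) under the distribution over all tested genes (bars); the members range from -0.46 (IARS2) to 0.57 (YARS).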

How the data were processed

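RNA was extracted from HCT116 spheroids, 48 ng of which was made into libraries with the QuantSeq 3′ FWD kit (molecular identifiers, 18 PCR cycles), per the labels' protocols. The labels give the molecule as cytoplasmic RNA and describe no fractionation. The authors' deposited table holds estimated counts per gene. The tools named were Salmon 1.5.2, STAR, cutadapt 3.4, UMI-tools 1.1.2 and FastQC 0.11.9, and the build GRCh38, per the submitters' processing notes; order, settings and use of strand: not given in the sources used here. Of the nonzero deposited values 21.4% were not whole, and all were rounded here.

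Columns were mapped to groups by treatment and medium in their names, which give plate wells and no replicate number. The treatment field of the labels calls all 60 samples untreated and nutrient-rich, which contradicts the titles for most of them; groups follow the titles and the column names. The titles call the 5 libraries of a group biological replicates, without saying whether they are separate cultures, so p-values reflect how these libraries vary. No pair of replicates agreed within sampling noise (chi-square per degree of freedom 2.27 to 21.5 over 120 pairs).

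Genes were kept with filterByExpr (minimum count 10, minimum total 15); the 11298 kept hold 99.62% of counts. A quasi-likelihood model of edgeR 4.0.16 (R 4.3.3) with TMM scaling and a mean for each of 12 groups was fitted to all 60 libraries (48 residual degrees of freedom, common dispersion 0.0316). P-values are two-sided and Benjamini-Hochberg adjusted within each contrast across every tested gene, and 0.05 was the threshold. SE is that of the log2 fold change, intervals are 95%, and CPM are TMM scaled. DESeq2 1.42.0, other filters and scalings, plate row, thinning and leaving out libraries were alternatives. The relation with ASNS used log2 CPM with a prior count of 2 and 100000 permutations within groups. The scripts were tested on simulated data.

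The members and gene lists were chosen with earlier results of these data known. All 36 members are reported. A gene of the partner list is not reported here and was left out of its counts. Values by library are given for up to 3 rises and 3 falls of each class by averaged fold change, for members called against untreated, and for GARS, KARS and EPRS; those of others shown were chosen after their values were seen. Promoter windows and positions come from RefSeq GRCh38.p14, matched by symbol for 18 members and by older symbol for 18. Exon overlaps come from GENCODE 29.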

Additional observations from a re-analysis of the deposited data

Results flagged for a closer look

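A search for single libraries that stand apart covered 12 members: NARS, TARS, FARSB, QARS, AARS2, VARS2, TARS2, MARS2, MARS, GARS, KARS and EPRS. In their 144 groups of 5, a single library stood apart from the other 4 in 6 groups, its gap to the nearest being over 0.71 of the group's range. Chance flags about 1 in 20 groups. QARS had 80 CPM in well B3 (kynurenine, Medium 1), against 62.8 to 66.9 CPM in the others. MARS2 had 15.1 CPM in well A1 (untreated, Medium 1), against 9.78 to 11.3 CPM. MARS had 81.5 CPM in well D6 (hemin, Medium 2), against 55.9 to 61.7 CPM. GARS had 117 CPM in well B4 (hemin and kynurenine, Medium 1), against 76 to 82.9 CPM. KARS had 140 CPM in well A4 (kynurenic acid, Medium 1), against 176 to 186 CPM. EPRS had 257 CPM in well G7 (kynurenic acid, Medium 2), against 163 to 182 CPM. These 6 flags fall in 6 different genes and 6 different libraries. Other members were not put to this rule. Of these, CARS had 356 CPM in well G1 (butyrate, Medium 1), against 176 to 212 CPM in the others. It had 355 CPM in well A7 (kynurenine, Medium 2), against 154 to 211 CPM. FARSA had 139 CPM in well B2 (butyrate, Medium 1), against 70.8 to 85.1 CPM.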

How the results depend on the processing

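Of 37 member calls, 209 of 245 values under other settings stayed past the threshold in the same direction, 36 missed it and 0 reversed; 18 calls were kept in every leave-one-out fit. Averaged over treatments, 7 cytosolic and 6 mitochondrial genes passed (6 to 8 and 5 to 6 when 1 library was left out). Within treatments, the 18 cytosolic calls became 15 to 19 on leaving out 1 library; the 5 mitochondrial calls became 3 with no filter on low counts, 3 with plate row as a term, 2 with only the 2 groups compared and 2 to 5 on leaving out 1 library. The 1 call against untreated became 3 with no filter on low counts, 6 without wells B2 and A7, 0 with plate row as a term, 0 after thinning to the smallest total, 4 with DESeq2, 2 with only the 2 groups compared and 0 to 6 on leaving out 1 library, the 6 without well G2. Differences between media in a response gave 0, and 0 to 1 on leaving out 1 library, the 1 without well G2. Kynurenic acid against kynurenine gave 0 throughout. All-gene shares under these other settings are not given, so these member counts cannot be set against them. Of the genes with a slope on ASNS past the threshold in either direction, a relation chosen after seeing the data, 6 cytosolic (5 up, 1 down) became 3 without the 2 farthest libraries, 0 in Medium 2 alone and 1 in Medium 1 alone; 2 mitochondrial (1 up, 1 down) became 0 without those libraries, 2 in Medium 2 alone (1 up, 1 down) and 0 in Medium 1 alone. All-gene shares in these fits were 7.58%, and 2.74%, 3.63% and 0.0361% in the same order. The causes were not tested. Averaged contrasts of 30 against 30 libraries had median interval half-widths of 0.119 (cytosolic) and 0.178 (mitochondrial) on the log2 scale, while exposure contrasts had about 0.29 and 0.43 in Medium 1, so that smaller changes were not detectable there. The intervals are not adjusted for the number of genes, and larger changes could also miss the threshold. SARS with butyrate in Medium 1 did so at 0.60 (edgeR quasi-likelihood, adjusted p = 0.302). No paired analysis was possible because the columns carry plate wells and no replicate numbers.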
